A study of Mus musculus with 1183 samples.

Results

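Of the 1183 single cells sequenced from hyperoxic mouse lung, 87 carried the labels DC I (40 cells), DC II (25 cells) or DC III (22 cells), and they were taken by those labels of cell subtype alone. Macrophages, the comparison, were the 690 cells labelled Mac II, Mac III, Mac IV or Mac V. Distal lung had been taken at postnatal day 7 from 1 female and 1 male mouse kept in hyperoxia, a raised oxygen level that injures the developing lung. All groups shared that age and treatment, no air-kept mouse was analysed here, and sex and animal cannot be told apart. The series title asks how the varied immune cell types of the newborn lung modulate its response to hyperoxia. All but 2 dendritic cells were from plates gated on CD45, a protein on the surface of leukocytes. The other 2, female DC III cells, were from a plate whose gate is labelled mesench. The female gave 16 DC I, 11 DC II and 11 DC III cells and the male 24, 14 and 11. How the subtype labels were assigned is not given in the sources used here, so tests between classes may reuse the values that set them.

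Dendritic cells take up antigen, cut it into peptides and show the peptides on MHC molecules to T cells. Conventional dendritic cells include a type 1, which depends on the transcription factors Irf8 and Batf3 and shows antigen from engulfed cells to CD8 T cells, and a type 2, which depends on Irf4 and mainly addresses CD4 T cells. After activation or during tolerance both can mature, take up the receptor Ccr7 and migrate to the draining lymph node. Macrophages of the lung engulf particles, surfactant and dying cells and mostly stay in the tissue.

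The raw reads of all cells of 1 class in 1 animal were added up, which gave 6 dendritic and 8 macrophage libraries. Dendritic cells held 103192 to 5465293 reads each with a median of 1155176, and their libraries held 10037071 to 33828927 reads against 26507095 to 235566546 in the macrophage libraries. Levels below are CPM, a gene's reads scaled to the total of the summed library, given for the female and then the male. Tests are edgeR's quasi-likelihood test over 14347 genes with Benjamini-Hochberg adjusted p, called under 0.05. With 1 library per animal and class, the spread they use is that between the female and male libraries of the classes. It mixes animal, sex, the cells drawn and, for part of the female cells, the sequencing run. The tests describe the labelled classes and are no independent evidence that the classes exist. Counting intervals are exact Clopper-Pearson at 95% on numbers of cells. They cover counting error only, since cells of 1 animal are not independent replicates. No molecular identifiers are named, and amplified reads are not independent molecules.

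The labels were first set against marker lists. DC I libraries held summed levels of 14739.5 and 13562 CPM over 14 markers of type 1 dendritic cells, while DC II held 1863 and 2188 and DC III 1023 and 1393. Macrophage libraries held 826 to 1457 CPM of them. Over 12 type 2 markers DC II held 5186 and 4502 CPM, DC I 119.8 and 198.7, DC III 81.7 and 158.3 and macrophages 1444 to 2877. For 28 genes of mature or migratory dendritic cells, DC III held 47032 and 55385 CPM, DC I 682 and 727, DC II 1932 and 2940.2 and macrophages 528 to 1500.3. Each list was therefore highest, in both animals, in a different class. The lists were chosen with earlier results of these data known. They include Naaa, Mgl2, Ccl22 and Ccl5, markers given with the classes, so this is no independent check of the labels. Ccl5 alone gave 13847 and 29487 CPM of the mature list in DC III. At 50 CPM or more within a cell, the median DC I cell held 13 of 14 type 1 markers, the median DC II cell 6 of 12 type 2 markers and the median DC III cell 20 of 28 mature markers, with a range of 18 to 23. Only 1 of 40 DC I and 1 of 25 DC II cells held as large a share of another class's list as of its own, and 0 of 22 DC III cells did, which allows a share of up to 13.6% by a limit of 3 counts (exact upper bound 15.4%).

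**Figure D1:**
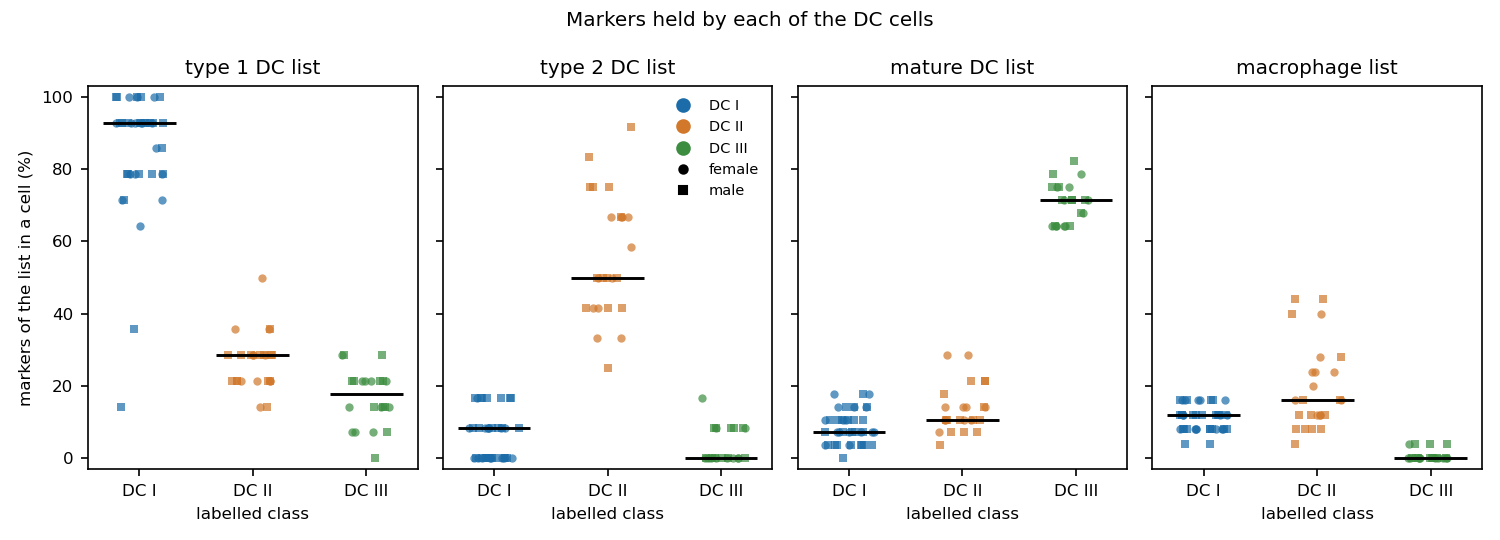
Share of the markers of 4 lists that reached 50 CPM in each dendritic cell (y axis, percent of the list), by labelled class (x axis), with female cells as circles, male cells as squares and the class median as a bar. DC I, DC II and DC III stand apart on the type 1, type 2 and mature lists in turn, and some DC II cells reach the upper end of the macrophage list.

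Of the 87 cells, 13 stood apart by the markers they held, under thresholds chosen after the values were seen. At 50 CPM, 11 cells held 3 markers of another lineage, 5 of plasmacytoid dendritic cells or 10 of macrophages. The other 2, a male DC I and a female DC II cell, are those with as large a share of another dendritic class's list as of their own. DC II held 9 of the 13, 3 among 11 female and 6 among 14 male cells. Among these were 4 cells with 10 or 11 of 25 macrophage markers and 2 male cells with T cell markers, of which 1 is also among the 4. A further 2 male cells held 7 and 5 of the 8 plasmacytoid markers that had counts, with Siglech at 2463 and 1950.5 CPM. Of the 3 DC I cells, 1 male cell held 5 epithelial markers and the surfactant gene Sftpc at 224717 CPM. In DC III 1 male cell held 5 B cell and 3 T cell markers, with Cd79a at 545 and Cd3d at 486 CPM. As summed levels, the epithelial list stood at 60.2 and 10807 CPM in DC I, 3.03 and 127.3 in DC II and 0.399 and 11.4 in DC III, and the plasmacytoid list reached 1144 CPM in the male DC II library against 100.5 to 230.4 in the other 5. Every comparison was also fitted without these 13 cells, and some levels without them are given below. Where a gene is on a list that set the thresholds, a lower level without these cells follows in part from that rule.

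Dendritic and macrophage libraries differed in 1825 of 14347 genes, 486 higher in dendritic cells (3.39%) and 1339 lower (9.33%), with a median log2 difference of -0.52 over all genes. With 11 cells drawn from each class and animal, so that all libraries held equal numbers of cells, 751 genes were called, of which 40.6% were higher, against 26.6% of the 1825, and the median was -0.08. The test averages the 3 dendritic classes on the log scale, so that a class at 0 reads pulls a gene far down: for 62 of the genes called lower, mean CPM was higher in dendritic cells. A gene high in 1 class and at 0 reads in another can also go uncalled. Both limits hold for the counts of list members below, beside which 3.39% higher and 9.33% lower are the shares over all genes. Without the 13 cells 2007 genes were called, 413 higher and 1594 lower, with a median of -0.74. Cells of the run labelled DC35 alone gave 1176 calls, 18.1% of them higher. In that run the female gave only 4 DC I, 5 DC II and 2 DC III cells. Fewer cells and the single run therefore cannot be told apart, here or in the class counts below. A stricter count asked for libraries that do not overlap. Every dendritic library stood above every macrophage library in 0.362% of the genes tested and below in 1.74%. The difference was also called in 51 genes above (0.355%) and in 1.47% below. Between the dendritic classes, DC I was higher than DC II in 39 genes (0.272%) and lower in 86 (0.599%). It was higher than DC III in 1062 (7.40%) and lower in 453 (3.16%), and DC II was higher than DC III in 1161 (8.09%) and lower in 481 (3.35%). Without 1 library at a time, 1154 to 2427 genes were called, the fewest without the Mac III female library (1154) and the Mac III male library (1184).

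The genes named first are those with the largest differences, by the naming rule, that all 3 dendritic classes held at higher levels than every macrophage library. Dpp4, the surface peptidase CD26, stood at 270.3 and 328.8 CPM in DC I, 67.6 and 120.5 in DC II and 141.97 and 281.5 in DC III. Macrophage libraries held 0 to 11.1 CPM (edgeR, log2 difference 9.12 ± 0.59 SE, adjusted p = 2.96e-06). At least 10 CPM were seen in 32 of 40 DC I, 16 of 25 DC II and 17 of 22 DC III cells. DC II was the lowest class and still lay above all 8 macrophage libraries. Slamf7, a receptor of the SLAM family, stood at 427 and 405 CPM in DC I, 117.2 and 328.3 in DC II and 388.9 and 217.4 in DC III and at most at 13.5 CPM in macrophages (edgeR, log2 difference 5.42 ± 0.80 SE, adjusted p = 0.000894). Cst3, cystatin C, an inhibitor of cysteine proteases, reached 32897 and 49298 CPM in DC I, 6307 and 12405 in DC II and 13764 and 22297 in DC III, against 713 to 5014 in macrophages (edgeR, log2 difference 3.11 ± 0.22 SE, adjusted p = 4.71e-06). Its level was highest in DC I, and the lowest dendritic library was the female DC II one.

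Crip1, a small LIM protein, was even across the classes at 4916 to 7968 CPM and at 347.5 to 2553 in macrophages (edgeR, log2 difference 3.07 ± 0.20 SE, adjusted p = 2.96e-06). Adam8, a membrane protease, stood at 227.6 and 150.1 CPM in DC I, 376.3 and 149.1 in DC II and 1174 and 760.2 in DC III. The macrophage range was 1.59 to 35.7 CPM (edgeR, log2 difference 5.33 ± 0.48 SE, adjusted p = 2.82e-05). For Cbfa2t3, a transcriptional corepressor, the dendritic range was 624 to 2455 CPM with the highest value in DC III, and the macrophage range 10.7 to 373.6 (edgeR, log2 difference 3.72 ± 0.28 SE, adjusted p = 6.96e-06). The vesicle protein gene Syngr2 ranged over 849.7 to 2866 CPM in dendritic and 230.6 to 513 in macrophage libraries (edgeR, log2 difference 2.22 ± 0.19 SE, adjusted p = 1.49e-05). The kinase gene Jak2, which signals below cytokine receptors, did so over 79.5 to 266.6 and 22 to 53.7 CPM (edgeR, log2 difference 2.35 ± 0.29 SE, adjusted p = 0.000248). These genes, with H2-Aa, H2-Eb1, Cd74 and Psmb9 below, are the 12 largest differences under the naming rule. All 12 calls held in 11 alternative analyses and without each library in turn, except Jak2 with 11 cells per library (adjusted p 0.0515, edgeR).

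**Figure D2:**
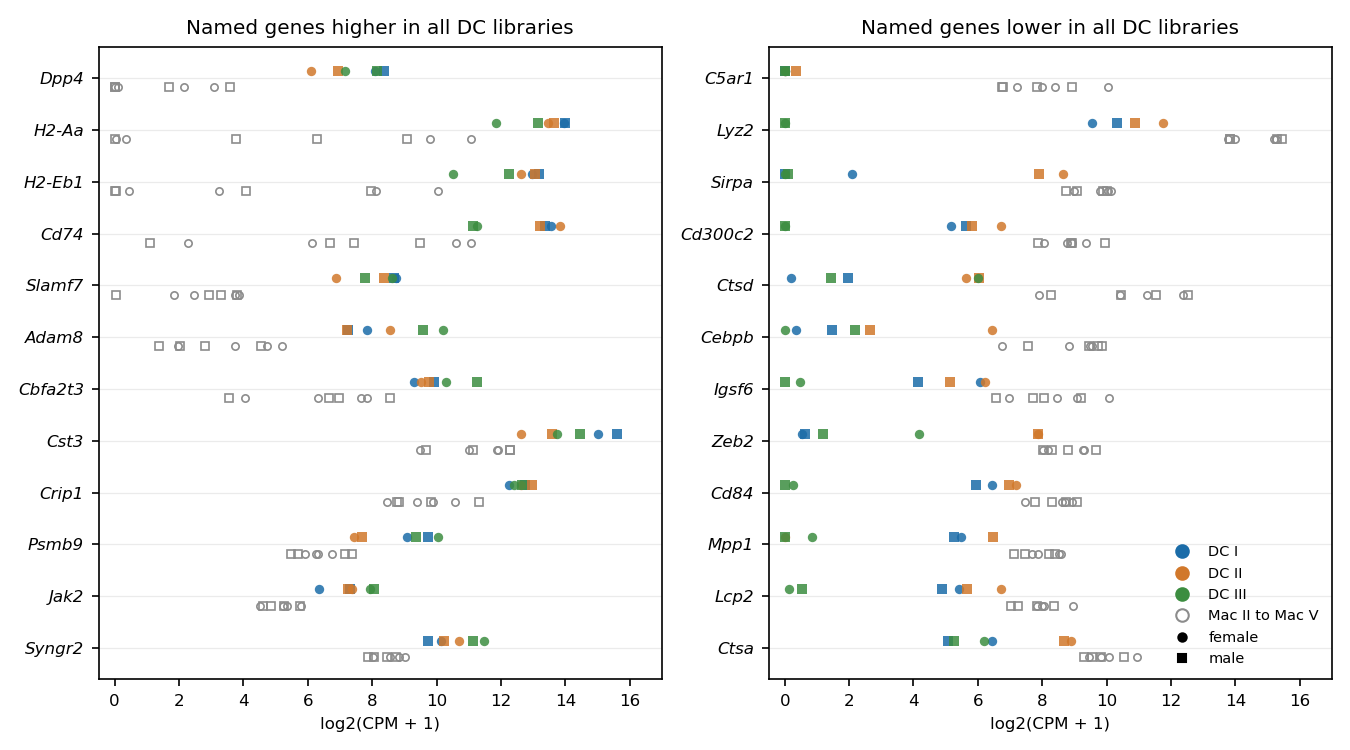
Level of the 12 genes named as higher and the 12 named as lower in dendritic cells, as log2(CPM + 1) on the x axis, with 1 point per summed library (circles female, squares male, filled in class colours for dendritic cells, open for Mac II to Mac V). In every gene shown the filled points lie on one side of all open points, and the gap is narrowest for Psmb9, Cd74, Sirpa and Zeb2.

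MHC class II genes encode the paired chains that hold peptide for CD4 T cells, the invariant chain Cd74 that guards them on the way, the H2-DM and H2-O proteins that edit the peptide, and Ciita, the coactivator that switches the set on. Of 13 genes in this list 10 were higher in dendritic cells, 1 was lower and 2 were not called, with a median log2 difference of 5.74 beside -0.52 over all genes. In 4 of the 13 every dendritic library lay above every macrophage library. The part of the promoter read by the factors that recruit Ciita ends in the Y box, and for this reason the 120 bases before the RefSeq start of 4 of these genes are shown, with the Y box core GATTGG in capitals (build GRCm38.p6, each read along the gene's own strand).
H2-Aa, chr17:34287824-34287943, minus strand: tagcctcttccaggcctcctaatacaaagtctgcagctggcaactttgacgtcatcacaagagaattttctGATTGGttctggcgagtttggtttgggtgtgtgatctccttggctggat
H2-Eb1, chr17:34305747-34305866, plus strand: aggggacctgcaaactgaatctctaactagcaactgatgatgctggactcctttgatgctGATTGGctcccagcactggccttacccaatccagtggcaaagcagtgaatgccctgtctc
H2-DMb1, chr17:34153071-34153190, plus strand: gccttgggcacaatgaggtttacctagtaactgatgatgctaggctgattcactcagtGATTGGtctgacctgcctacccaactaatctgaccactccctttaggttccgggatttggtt
H2-Ob, chr17:34238785-34238904, plus strand: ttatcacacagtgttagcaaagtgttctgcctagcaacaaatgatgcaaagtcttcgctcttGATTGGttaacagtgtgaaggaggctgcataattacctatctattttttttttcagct
The core lies 49 bases from the start in H2-Aa, 60 in H2-Eb1, 62 in H2-DMb1 and 58 in H2-Ob. Of the 13 listed genes, 10 had a promoter entry (all but H2-Ab1, Cd74 and Ciita), and 7 held GATTGG in these 120 bases, searched on both strands and found in all 7 on the gene's own. The 7 were H2-Aa, H2-DMb1, H2-DMb2, H2-Eb1, H2-Eb2, H2-Oa and H2-Ob, and Ctss, H2-DMa and Ifi30 held none. Over all 27025 genes with an entry the share on either strand was 11.2%, and over the 10798 of them that were tested 15.4%. The longer TGATTGG, which overlaps the core, lay in the same 7 promoters and in 6.06% of all. These matches are letters in a window and no measure of binding.

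H2-Aa, an alpha chain, stood at 15948 and 16226 CPM in DC I, 11188 and 12885 in DC II and 3676 and 9162 in DC III, while the macrophage libraries ran from 0.017 to 2136 (edgeR, log2 difference 8.74 ± 1.14 SE, adjusted p = 0.000361). H2-Eb1, a beta chain, stood at 7980.3 and 9356 CPM in DC I, 6236 and 8517 in DC II and 1463 and 4834 in DC III. In macrophages it was 0.017 to 1065 CPM (edgeR, log2 difference 8.60 ± 1.15 SE, adjusted p = 0.000435). Cd74 stood at 11897 and 10558 CPM in DC I, 14616 and 9503 in DC II and 2468 and 2224 in DC III. Macrophages held 1.13 to 2128 CPM (edgeR, log2 difference 5.74 ± 0.57 SE, adjusted p = 5.59e-05). In all 3 genes DC III was the lowest dendritic class and still lay above all macrophages, for Cd74 by little. At least 10 CPM of Cd74 were found in 40 of 40 DC I, 24 of 25 DC II and 22 of 22 DC III cells. H2-Ab1 followed the same order, at 18499 and 21123 CPM in DC I, 13305 and 16901 in DC II and 346.4 and 1629.8 in DC III, but the DC III values overlapped those of macrophages, 0.0217 to 1739 CPM (edgeR, log2 difference 9.25 ± 1.04 SE, adjusted p = 0.000119).

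The peptide editing genes split the dendritic cells. H2-DMa stood at 1919 and 1823 CPM in DC I, 2813 and 2682 in DC II and 37.7 and 6 in DC III, so that DC I and DC II lay above and DC III below the macrophages, 189.5 to 1257 CPM. The mean over the classes did not differ detectably from macrophages (edgeR, log2 difference 0.22 ± 0.31 SE, adjusted p = 0.762), whereas the gene was lower in DC III than in DC I (edgeR, log2 difference of DC I from DC III 6.30 ± 0.73 SE, adjusted p = 0.000318) and DC II (edgeR, log2 difference of DC II from DC III 6.72 ± 0.74 SE, adjusted p = 0.000205). H2-DMb1, its partner, stood at 1755 and 1509 CPM in DC I, 2375 and 1523 in DC II and 0 and 31.4 in DC III, and the same comparisons were called (edgeR, adjusted p = 0.037 and 0.033). Of H2-DMa, 3 of 22 DC III cells held 10 CPM, compared with all 40 DC I and all 25 DC II cells. H2-Eb2 ran the other way, at 0.0386 and 0.0887 CPM in DC I, 2.58 and 0.168 in DC II and 40.9 and 92.9 in DC III, and was higher in DC III than in DC I (edgeR, log2 difference of DC I from DC III -10.27 ± 2.36 SE, adjusted p = 0.0193).

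H2-Ob stood at 181.1 and 81.5 CPM in DC I, 3.18 and 75.8 in DC II and 0.0996 and 4.66 in DC III, against 0 to 2.65 in macrophages (edgeR, adjusted p = 0.000681), and the female DC III value fell within their range. Ciita stood at 229.3 and 278.8 CPM in DC I, 361.2 and 122.4 in DC II and 70.04 and 0.0639 in DC III, against 0 to 24.2 (edgeR, log2 difference 7.89 ± 1.17 SE, adjusted p = 0.000886), and the male DC III value was as low as in macrophages. Among DC III cells 2 of 22 held 10 CPM of Ciita and 1 of them held 96.3% of the class's reads, and no difference between the dendritic classes was called. Ctss, cathepsin S, which cuts the invariant chain, was the listed gene that was lower, at 752 and 564 CPM in DC I, 2384 and 1429.8 in DC II and 1605 and 889 in DC III, against 2178 to 6286 in macrophages (edgeR, log2 difference -1.62 ± 0.18 SE, adjusted p = 0.000114).

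**Figure D3:**
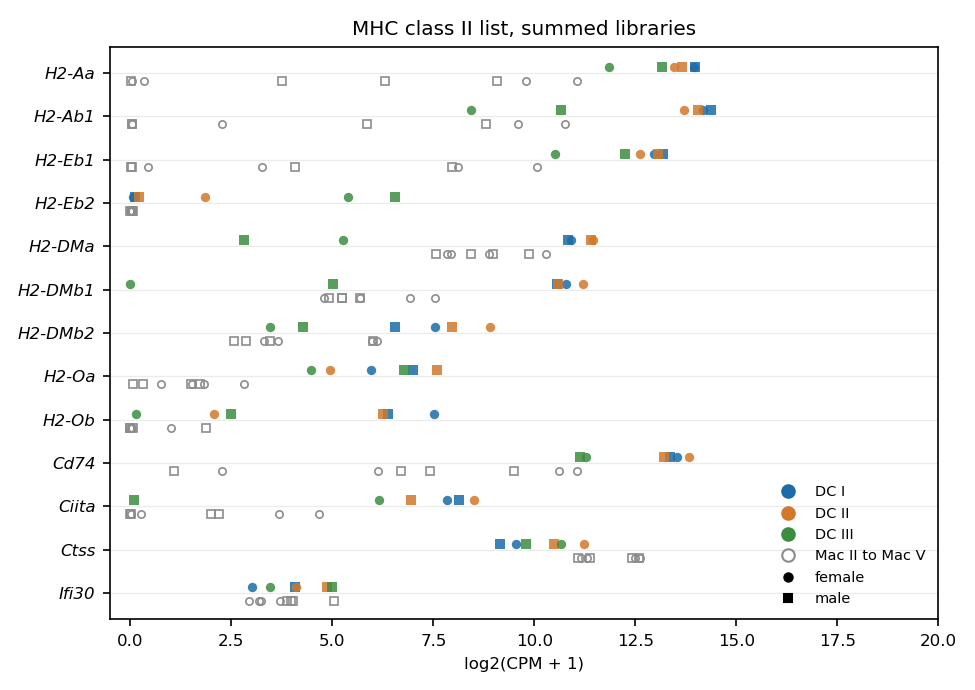
Level of the 13 genes of the MHC class II list as log2(CPM + 1) on the x axis, 1 point per summed library, symbols as in the plot of shared genes. DC III (green) lies left of DC I and DC II for the chains, Cd74 and the H2-DM genes, and right of them for H2-Eb2.

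A core list of genes shared by conventional dendritic cells was next. Of 19 tested genes of the core list 11 were higher, 1 was lower and 7 were not called, with a median log2 difference of 3.20. Among the 11, Traf1, Relb and Cd83 are also on the mature list and were higher in DC III than in both other classes. Flt3, the growth factor receptor that dendritic cells need to develop, stood at 331.9 and 292.1 CPM in DC I, 32.1 and 66.2 in DC II and 217.4 and 299.2 in DC III and at no more than 0.482 CPM in any macrophage library (edgeR, adjusted p = 3.71e-06). All dendritic libraries lay far above all macrophages, with DC II lowest. Zbtb46, a transcription factor of the conventional lineage, stood at 83.8 and 142.1 CPM in DC I, 82.6 and 47.5 in DC II and 184.8 and 27.4 in DC III, against 0 to 16.9 (edgeR, log2 difference 5.45 ± 1.01 SE, adjusted p = 0.0038), again with no overlap. Id2, an inhibitor of helix-loop-helix factors, stood at 3869.6 and 2973 CPM in DC I, 1199 and 674 in DC II and 5734 and 3663 in DC III. Macrophage libraries held 267.3 to 811 CPM (edgeR, log2 difference 2.36 ± 0.24 SE, adjusted p = 6.81e-05). For Id2 the male DC II value fell within the macrophage range, as did the female one without the 13 cells (606 CPM), and DC II was lower than DC III (edgeR, log2 difference of DC II from DC III -2.67 ± 0.47 SE, adjusted p = 0.00377).

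The listed gene called lower, Itgax, encodes CD11c, an integrin often used to sort dendritic cells. It stood at 215.2 and 223.9 CPM in DC I, 499.8 and 365.6 in DC II and 0.598 and 0 in DC III, within the macrophage range of 19.9 to 592 in DC I and DC II and below it in DC III (edgeR, log2 difference -1.94 ± 0.42 SE, adjusted p = 0.00979). P2ry10, a lysophospholipid receptor, stood at 93.8 and 32.4 CPM in DC I, 12.6 and 5.49 in DC II and 28.3 and 15.2 in DC III and at most at 0.0755 CPM in macrophages (edgeR, log2 difference 10.69 ± 0.99 SE, adjusted p = 3.27e-05). Kmo, Sept3, Kit and Runx3 had 0 reads in both DC III libraries, and for these 4 the mean over classes on the log scale differed from macrophages at an adjusted p near 1 (edgeR).

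MHC class I molecules show peptides from inside the cell to CD8 T cells, after the immunoproteasome has cut them and the Tap transporter has carried them in. Of 16 listed genes 11 were higher in dendritic cells, 0 lower and 5 not called, with a median of 1.44, and 5 of the 16 were also higher in DC III than in both other classes, as were 1.78% of all genes tested. Psmb9, an immunoproteasome subunit, stood at 536 and 851 CPM in DC I, 171.3 and 203.8 in DC II and 1052 and 658 in DC III, above every macrophage library by a small gap, 43.8 to 164.1 CPM (edgeR, log2 difference 2.61 ± 0.26 SE, adjusted p = 4.93e-05). Psmb8, another subunit, stood at 1418 and 1953 CPM in DC I, 346.5 and 853 in DC II and 1825 and 1666 in DC III. The macrophage range was 117.2 to 499.7 CPM (edgeR, log2 difference 2.33 ± 0.23 SE, adjusted p = 4.81e-05). Tap1 stood at 268.5 and 359.9 CPM in DC I, 31.7 and 50.4 in DC II and 714 and 577 in DC III, lowest in DC II, which was lower than DC I (edgeR, log2 difference of DC I from DC II 3.09 ± 0.45 SE, adjusted p = 0.0077) and DC III (edgeR, log2 difference of DC II from DC III -4.35 ± 0.48 SE, adjusted p = 0.000194). H2-K1, a heavy chain, stood at 1346 and 1097 CPM in DC I, 1519.5 and 1058 in DC II and 9609 and 10011 in DC III, against 464 to 1682 in macrophages, and only DC III lay above them. B2m, the light chain, stood at 1339.8 and 2002 CPM in DC I, 1719 and 1667 in DC II and 11011 and 13017 in DC III, and it was higher in DC III than in both other classes (larger edgeR adjusted p = 0.000242, the larger of the 2 adjusted p-values, as for all such genes below).

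Genes that mark macrophages were mostly lower. Of 25 macrophage genes 19 were lower, 0 higher and 6 not called, with a median log2 difference of -8.09, or -8.30 with genes at 0 reads set to their bound of 3 counts. Lyz2, lysozyme, stood at 741 and 1273 CPM in DC I, 3469 and 1873 in DC II and 0 and 0 in DC III, against 13898 to 44283 in macrophages (edgeR, adjusted p = 6.9e-08; limma voom did not call it, adjusted p = 0.987). C5ar1, the complement C5a receptor, had 5 reads in all dendritic cells together, in the male DC II library, against 106.9 to 1047 CPM in macrophages (edgeR, adjusted p = 4.71e-06). Mertk and Marco, receptors for dying cells and particles, and Chil3 had 0 reads in all 6 dendritic libraries. Of 12 monocyte genes 7 were lower and 1 was higher, with a median of -4.67. Summed over the macrophage list, DC I held 1631 and 1969.6 CPM, DC II 6361 and 3922, DC III 26.2 and 43 and macrophages 21352 to 68449.9.

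DC II thus stood nearest to macrophages on this list and DC III farthest, and DC II also held the 4 cells with the most macrophage markers. Csf1r, the receptor for the macrophage growth factor, stood at 42.4 and 4.7 CPM in DC I, 490.1 and 86.1 in DC II and 0 and 0 in DC III, against 90.9 to 1643 in macrophages (edgeR, adjusted p = 9.73e-05), and without the 13 cells at 464 and 12.1 CPM in DC II. C1qb, a complement chain, had 0 reads in DC I and DC III and stood at 307.3 and 442 CPM in DC II, or 172.5 and 13.8 without those cells. Adgre1, which encodes F4/80, had 0 reads in DC I and DC III and stood at 108.6 and 93.8 CPM in DC II, a little above the lowest macrophage library, the male Mac III one at 83.9 CPM. Leaving out the 13 cells gave 48.7 and 82.3, both below that library. Csf1r, C1qb and Adgre1 are on the macrophage list by which cells were left out, so lower levels were in part built in.

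Other receptors of phagocytes followed. Of 5 tested Fc receptors 4 were lower, Fcgr1, Fcgr3, Fcgr4 and Fcer1g, with a median of -8.22. Fcgr3 stood at 25.4 and 2.22 CPM in DC I, 357.002 and 387.99 in DC II and 0 and 0 in DC III, against 378.7 to 1020.1 (edgeR, adjusted p = 3.19e-05), and DC II reached the lower end of macrophages. Its male DC II value was just below them, at 378.3 CPM, without the 13 cells. Toll-like receptors sense microbial molecules, and of 12 listed 5 were lower, 1 was higher and 6 were not called, with a median of -3.61. Tlr7, a sensor of single-stranded RNA, had 0 reads in every dendritic library, against 29.7 to 80.7 CPM in macrophages. Tlr2, a sensor of bacterial lipoprotein, stood at 10.6 and 19.8 CPM in DC I, 191.7 and 83.1 in DC II and 0 and 0.958 in DC III. In macrophages it was 65.2 to 379.7 CPM (edgeR, log2 difference -4.06 ± 0.56 SE, adjusted p = 0.000559). Leaving out the 13 cells took its male DC II value to 39 CPM, below that range. Of 14 lectin receptors 7 were lower and 1 was higher, with a median of -2.41. Cd14, which binds lipopolysaccharide, stood at 7.5 and 25.2 CPM in DC I, 465 and 51.3 in DC II and 0 and 0 in DC III. Macrophages held 134.3 to 800.3 CPM (edgeR, adjusted p = 0.000126). Its DC II values were 62.2 and 37.5 CPM without the 13 cells, so that the female one fell from within the macrophage range to below it. Fcgr3 and Cd14 are also on the macrophage list by which cells were left out.

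Sirpa, an inhibitory receptor that binds CD47, stood at 3.25 and 0 CPM in DC I, 395.7 and 239.1 in DC II and 0 and 0.0639 in DC III, below every macrophage library, 422 to 1125 CPM (edgeR, log2 difference -8.05 ± 0.91 SE, adjusted p = 0.000128). Cd300c2 stood at 34.9 and 48.2 CPM in DC I, 104.5 and 54.9 in DC II and 0 and 0 in DC III. Macrophage libraries held 230.2 to 979.9 CPM (edgeR, adjusted p = 2.73e-06). A pair of lysosomal proteases was low: Ctsd stood at 0.155 to 65.2 CPM, against 240.2 to 5891 in macrophages (edgeR, log2 difference -6.72 ± 0.83 SE, adjusted p = 0.000223; limma voom adjusted p = 0.18), and Ctsa at 32.7 to 475, against 629 to 1950.1 (edgeR, log2 difference -3.06 ± 0.27 SE, adjusted p = 2.04e-05). The remaining named genes, Igsf6, Cd84, Mpp1 and Lcp2, stood at 0 to 144.3 CPM in dendritic libraries, and Mpp1 was not called without the female DC I library (edgeR, adjusted p = 0.0529) or the male one (0.0504). Of 6 genes of the NADPH oxidase 3 were lower, with a median of -1.37. Cybb, the catalytic chain of the NADPH oxidase that makes superoxide, had 0 reads in DC I and DC III, but DC II stood at 677 and 582 CPM beside 593 to 2070.3 in macrophages. All 25 DC II cells held at least 10 CPM of it.

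Transcription factors moved in both directions, 11 of 29 higher, 8 lower and 10 not called, with a median of 0.75. Batf3 stood at 224.04 and 274.97 CPM in DC I, 55.1 and 158.9 in DC II and 143.97 and 210.7 in DC III, against 0.0334 to 66 (edgeR, log2 difference 4.45 ± 0.66 SE, adjusted p = 0.000868), and the female DC II value fell within the macrophage range. Etv3 stood at 34.2 and 96.8 CPM in DC I, 404 and 304.1 in DC II and 1137 and 550.2 in DC III, above every macrophage library, 14.8 to 34 CPM (edgeR, log2 difference 3.58 ± 0.30 SE, adjusted p = 1.43e-05). The gap was small for the female DC I library and closed without the 13 cells (32.7 CPM). Among the lower ones were the myeloid factors Cebpb, 0.271 and 1.77 CPM in DC I, 86.5 and 5.27 in DC II and 0 and 3.58 in DC III, against 107.7 to 924 (edgeR, log2 difference -6.61 ± 0.96 SE, adjusted p = 0.000796), and Zeb2. Zeb2 stood at 0.464 and 0.532 CPM in DC I, 232.7 and 234.4 in DC II and 16.8 and 1.28 in DC III. The macrophage range was 257.7 to 810.4 CPM (edgeR, log2 difference -5.30 ± 0.49 SE, adjusted p = 3.2e-05). DC II lay just under the macrophages and DC I at nearly 0. Without the 13 cells the female DC II value was 287.9 CPM, within the macrophage range, as were those of Cebpb (124.4 CPM) and Lcp2 (185.1 CPM). For Zeb2 all 3 pairwise differences between the dendritic classes were called (edgeR, adjusted p = 0.00146, 0.00725 and 0.00482). Spi1, which encodes PU.1 of all these lineages, stood at 321.4 to 714 CPM in dendritic and 516 to 917 in macrophage libraries and was not called (edgeR, log2 difference -0.14 ± 0.18 SE, adjusted p = 0.716).

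Irf8 stood at 3616 and 4079 CPM in DC I, 62.5 and 659.5 in DC II and 589 and 929 in DC III. In macrophages it was 99.8 to 459 CPM (edgeR, log2 difference 2.14 ± 0.40 SE, adjusted p = 0.00408). DC I was highest, and no pair of classes differed beyond the threshold, with DC I against DC II at an adjusted p = 0.074 (edgeR). The male DC II value rested on few cells: 6 of 25 DC II cells held 10 CPM, 1 of them held 82.3% of the class's reads, and without the 13 cells the values were 112.8 and 0.0893 CPM. Irf4 stood at 1.39 and 0.0296 CPM in DC I, 60.9 and 134.95 in DC II and 46 and 0.766 in DC III and was not called (edgeR, log2 difference 1.05 ± 1.06 SE, adjusted p = 0.612), with 15 of 25 DC II, 1 of 40 DC I and 2 of 22 DC III cells at 10 CPM.

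DC I differed from both other classes, with higher levels, in 14 genes (0.0976% of those tested). Without single libraries the count ran from 6 to 26, with 7 without either DC I library, 6 without the female DC II library, and 24 and 26 without the female and male DC III libraries, and it was 19 without the 13 cells and 3 within run DC35. Of the 14 type 1 markers, 4 were among these genes. Against macrophages, 6 of the markers were called higher and 1, Naaa, lower in the mean of the dendritic classes on the log scale. The 0 reads of Naaa in DC III weigh on that mean. Its mean CPM was higher in dendritic cells, at 1756.23 against 304.985 in macrophages. Naaa, a lysosomal amidase that breaks down lipid amides, stood at 4947 and 3798 CPM in DC I, 1192 and 600.0 in DC II and 0 and 0 in DC III (larger edgeR adjusted p = 0.0397), and all 40 DC I cells held at least 10 CPM. Itgae, the integrin CD103 that binds E-cadherin of epithelium, stood at 452 and 340.2 CPM in DC I (larger edgeR adjusted p = 0.0294), and the male DC II and DC III libraries held 1 read each. Gcsam, an adaptor known from germinal centre B cells, stood at 311.04 and 260.6 CPM in DC I, at 0 reads in DC II and at most at 0.399 CPM in DC III (larger edgeR adjusted p = 0.0393). The animal as a replicate block ended this call (edgeR, adjusted p = 0.0791). Tlr3, the sensor of double-stranded RNA, stood at 242.1 and 493 CPM in DC I, 1.14 and 0.673 in DC II and 0 and 0 in DC III (larger edgeR adjusted p = 0.00617). Mpeg1, perforin-2, stood at 698 and 912 CPM in DC I, 250.8 and 274.4 in DC II and 153.2 and 153.7 in DC III (larger edgeR adjusted p = 0.0429), and macrophages, at 207.7 to 1611 CPM, reached above DC I. Without the 13 cells DC II stood at 111.7 and 149.7 CPM of Mpeg1 and 492 and 541 CPM of Naaa.

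Each of the 5 named DC I calls was lost without at least 1 library. Without the female DC I library adjusted p was 0.109 for Itgae, 0.128 for Gcsam, 0.159 for Naaa and 0.0655 for Mpeg1 (edgeR). Without the male one it was 0.0643, 0.086, 0.0713 and 0.15 in that order and 0.0525 for Tlr3. Leaving out the female DC II library ended the calls of Itgae (0.161), Gcsam (0.131) and Mpeg1 (0.158), and leaving out the male one also that of Naaa (0.122; Itgae 0.113, Gcsam 0.112, Mpeg1 0.113). Gcsam was also lost without the female (0.062) and male (0.0558) DC III library. The direction stayed the same in each of these fits. Of 11 other analyses, Tlr3 kept its call in 9, Itgae, Gcsam and Naaa in 8 and Mpeg1 in 6. The highest adjusted p was 0.439 for Tlr3, with 11 cells per library, and with all 15 subtypes in the fit it was 0.332 for Itgae, 0.772 for Naaa and 0.650 for Mpeg1 (edgeR). Limma voom gave 0.108 for Mpeg1.

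Other markers of type 1 dendritic cells were also highest in DC I without passing both tests. Xcr1, a chemokine receptor, stood at 529.8 and 385.03 CPM in DC I, 16.7 and 0.056 in DC II and 0.199 and 16.7 in DC III, and the DC II and DC III reads came almost wholly from 1 cell each. Clec9a, a receptor for the actin of dead cells, stood at 248.01 and 366.5 CPM in DC I, 17.4 and 2.75 in DC II and 2.59 and 3.19 in DC III, with 36 of 40 DC I cells at 10 CPM. Wdfy4, needed for cross-presentation, stood at 880.1 and 999.5 CPM in DC I, 110.1 and 405 in DC II and 20.2 and 0.958 in DC III and was higher in DC I than in DC III (edgeR, log2 difference of DC I from DC III 6.39 ± 1.10 SE, adjusted p = 0.00359). Tlr11, a sensor of profilin, had reads only in DC I among the dendritic classes, 52.8 and 61.2 CPM, and 16 of 40 cells held 10 CPM. Havcr2, which encodes TIM-3, stood at 186.9 and 183.6 CPM in DC I, 21.9 and 39.7 in DC II and 0 and 0.0639 in DC III and was higher in DC I than in DC III (edgeR, log2 difference of DC I from DC III 11.92 ± 1.15 SE, adjusted p = 9.85e-05). Against the macrophage classes, 9 of the 14 DC I genes had a DC I mean above every class mean, 2 lay within and 3 below. Of the 14, 0 were also called higher and 8 lower in dendritic cells as a whole, beside 3.39% and 9.33% of all genes.

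DC II was higher than both other dendritic classes in 56 genes (0.39%), and in 35 to 92 when single libraries were left out, with 35 without the female DC I library and 91 and 92 without the female and male DC III libraries. Without the 13 cells it was 52, and within run DC35 25. Of 12 type 2 markers 4 were among the 56. Against macrophages, 0 were called higher and 5 lower in the mean of the dendritic classes on the log scale. Reads at or near 0 in DC I and DC III weigh on that mean. Mgl2 was not called, although its mean CPM was 485 in dendritic cells against 16.8. Most of the 56 were genes that macrophages hold too, and 48 were also called lower in dendritic cells as a whole. For the 56, the DC II mean lay within the range of the macrophage class means in 37, above it in 8 and below it in 11. Cybb, given above, ranked first (larger edgeR adjusted p = 4.16e-06). Plaur, the urokinase receptor, stood at 0 and 0 CPM in DC I, 324.4 and 99.6 in DC II and 0 and 2.43 in DC III (larger edgeR adjusted p = 0.0112), against 42 to 625 in macrophages. Its DC II values were 121.6 and 6.7 CPM without the 13 cells, the male one below that range. Ear2, a ribonuclease, stood at 0.309 and 13.5 CPM in DC I, 998 and 839.6 in DC II and 0.0996 and 0.0639 in DC III (larger edgeR adjusted p = 0.0253), against 22.6 to 2815. Clec4n, the receptor Dectin-2, stood at 234.03 and 55.7 CPM with 0 reads in DC I and DC III (larger edgeR adjusted p = 0.000393; limma voom 0.0713).

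Some DC II genes were at lower levels in macrophages. Mgl2, the lectin CD301b of type 2 dendritic cells, stood at 1825 and 1084 CPM in DC II with 1 read in DC I and 0 in DC III (larger edgeR adjusted p = 0.000174), and at 0 to 68 CPM in macrophages, with the highest values in Mac IV. It was not even, since 18 of 25 DC II cells held 10 CPM, and without the 13 cells the DC II levels were 310.5 and 974 CPM. Il1rl1, the receptor of interleukin 33, stood at 160.4 and 196.9 CPM in DC II with 1 read in the other dendritic classes together (larger edgeR adjusted p = 0.00663) and at most 16.2 CPM in macrophages. Ctnnd2, a catenin known from neurons, stood at 168.2 and 186.96 CPM in DC II with 1 read in the others (larger edgeR adjusted p = 0.0363), and the replicate block ended this call (0.0632). Clec10a, the sister lectin of Mgl2, stood at 0.0386 and 0.118 CPM in DC I, 79.1 and 287.4 in DC II and 0.199 and 0.128 in DC III (larger edgeR adjusted p = 0.00356). The adhesion lectins Cd209a, 0 and 0.916 CPM in DC I, 1129 and 997 in DC II and 0 and 0 in DC III, and Cd209d, 321.7 and 272.4 CPM with 0 reads in the other dendritic classes, were not called against DC I (edgeR, adjusted p = 0.172 and 0.106). Without the 13 cells they stood at 398.2 and 966 and 108.4 and 261.9 CPM in DC II, and Ctnnd2 at 64.1 and 280.4.

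Single libraries decided some of these calls. Ctnnd2 was lost without the female DC I (0.165), male DC I (0.162), female DC II (0.088) or male DC II library (0.0769), as edgeR adjusted p. Plaur was lost without the female (0.0669) or male DC I library (0.0525), and without the female DC II library so were Sirpa (0.0812) and Ear2 (0.0521). With 11 cells per library Clec10a (0.385), Il1rl1 (0.117) and Ear2 (0.104) lost their calls. So did Sirpa with all 15 subtypes in the fit (0.248). Of the 11 other analyses, Ear2 kept its call in 8 and Ctnnd2 in 6. Cybb, Mgl2 and Adgre1 were called in all 11 and without each of the 6 dendritic libraries.

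DC III had the most genes higher than in both other classes, 1.78% of the 14347 tested. The share ran from 0.940% to 1.69% when single libraries were left out, with 0.940% and 1.08% without the female and male DC I libraries. For 91.4% of these genes the DC III mean also lay above every macrophage class mean. Of the 28 genes of the mature list 27 were tested, and 18 were in the DC III set. Against macrophages, 10 of the 27 were higher and 2, Cd274 and Pdcd1lg2, lower in the mean of the dendritic classes on the log scale. Reads at or near 0 in DC I and DC II weigh on that mean. Pdcd1lg2 was itself a DC III gene, at 32.4 and 13.2 CPM in DC III. Ccl5 was not called against macrophages, although its mean CPM was 7222 in dendritic cells against 25.2. Without the 13 cells the DC III share was 1.67% of the genes tested, and within run DC35 69 genes (0.496%) were called. Ccr7, the receptor that leads dendritic cells to lymph nodes, stood at 0 and 0 CPM in DC I, 0 and 93.4 in DC II and 7281 and 6443 in DC III, with 22 of 22 DC III, 2 of 25 DC II and 0 of 40 DC I cells at 10 CPM. It was higher in DC III than in DC I (edgeR, adjusted p = 0.0198), and the difference from DC II, whose reads all lay in the male library, did not pass (edgeR, log2 difference of DC II from DC III -7.61 ± 2.91 SE, adjusted p = 0.119). The male DC II value was 0.447 CPM once the 13 cells were left out. Fscn1, which bundles actin in the dendrites of mature cells, stood at 0 and 0 CPM in DC I, 2.2 and 1.63 in DC II and 2055 and 2023 in DC III (larger edgeR adjusted p = 0.000351). Both genes stayed at or under 31.8 CPM in all macrophages.

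By size of difference Ccl5 led, at 13847 and 29487 CPM in DC III with 0 reads in both other classes (larger edgeR adjusted p = 0.00585; limma voom 0.0939), and 22 of 22 cells held it. Il12b, the shared chain of interleukins 12 and 23, stood at 1584 and 1639 CPM in DC III with 1 read in the others, and 17 of 22 cells held 10 CPM (larger edgeR adjusted p = 0.00733). Its call was lost without the female (0.0602) or male DC I library (0.0517, edgeR adjusted p). Il12a, the partner chain of interleukin 12, and Il23a, that of interleukin 23, had at most 0.168 CPM in any dendritic library. Tnfrsf4, which encodes OX40, stood at 1422 and 1304 CPM with 1 read in DC II and 0 in DC I (larger edgeR adjusted p = 0.00338).

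H2-M2, a class I gene outside the classical set, stood at 2253 and 725 CPM, at least 29629.5-fold higher than DC I by a limit of 3 counts over the class (larger edgeR adjusted p = 0.00171). Apol7c, of the apolipoprotein L family, stood at 782 and 732 CPM in DC III (larger edgeR adjusted p = 0.00692), held by 14 of 22 cells. Lad1, ladinin, a protein of basement membrane anchors, stood at 669.5 and 464 CPM (larger edgeR adjusted p = 0.000602), and Synpo2, an actin-binding protein of muscle, at 310.6 and 502 (larger edgeR adjusted p = 0.000271). The set held a pair of genes of sulfate metabolism, Papss2, which makes the sulfate donor, at 186.4 and 268.6 CPM (larger edgeR adjusted p = 0.00503), and the sulfotransferase Gal3st2 at 52.9 and 98.7 (larger edgeR adjusted p = 0.0189). The 6 genes of this paragraph had 0 reads in DC I and DC II. Gal3st2 kept its call without only 1 of the 6 libraries, the female DC III one, with adjusted p from 0.0551 to 0.0632 without each of the other 5 (edgeR).

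Nudt17, a hydrolase, stood at 825 and 724 CPM with 1 read in DC II (larger edgeR adjusted p = 0.0348). The replicate block ended its call (0.0556), as did leaving out the female or male DC I library (0.118 and 0.121) or DC II library (0.156 and 0.144), all as edgeR adjusted p. Of the 11 other analyses, Nudt17 and Gal3st2 each kept the call in 8.

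**Figure D4:**
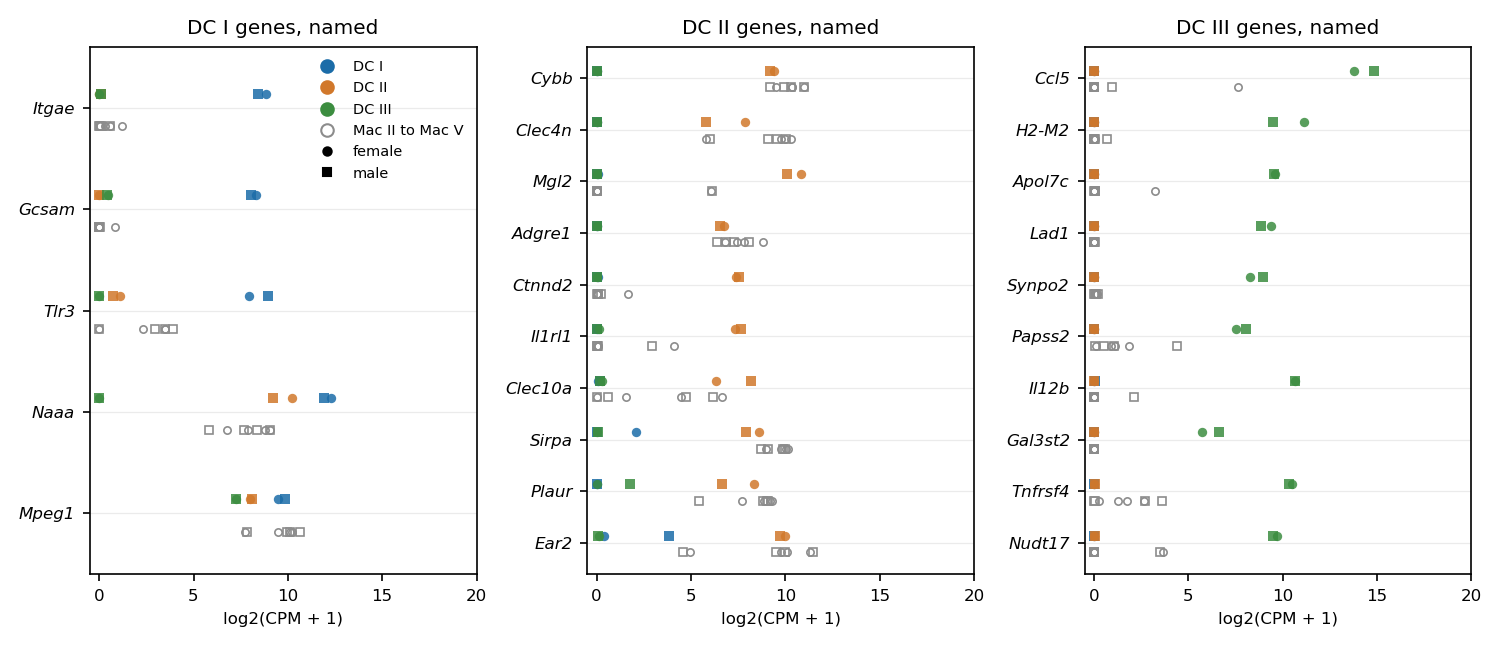
Level of the named genes of DC I (left), DC II (middle) and DC III (right) as log2(CPM + 1) on the x axis, 1 point per summed library, symbols as in the plot of shared genes. For most DC II genes the open macrophage points reach the level of DC II, whereas for the DC III genes they lie far left of DC III, most of them near 0.

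NF-kappaB is built from Rel proteins, which switch on many genes of maturation. The transcription factor list holds 4 of them, of which 3 were higher in DC III than in both other classes. Relb stood at 21.4 and 2.19 CPM in DC I, 58.8 and 26.8 in DC II and 855 and 1040.1 in DC III (larger edgeR adjusted p = 0.0077), Nfkb2 at 19.4 and 12.4 CPM in DC I, 59.4 and 128.7 in DC II and 550.0 and 492 in DC III (larger edgeR adjusted p = 0.0135) and Rel at 32 and 95.3 CPM in DC I, 260.2 and 175.4 in DC II and 699 and 644 in DC III (larger edgeR adjusted p = 0.0412). Nfkb1 stood at 124.95 and 106.5 CPM in DC I, 353.4 and 217.7 in DC II and 132.7 and 190.4 in DC III and was not called between any dendritic classes (edgeR, adjusted p of DC II against DC III 0.658). The next genes, like the search that follows, were chosen after values were seen. The inhibitor Nfkbia stood at 192.1 and 332.5 CPM in DC I, 639 and 1419.7 in DC II and 1942 and 3806 in DC III (larger edgeR adjusted p = 0.0373). The adaptor Traf1 stood at 53.4 and 32 CPM in DC I, 115.9 and 118.2 in DC II and 1709 and 1568 in DC III (larger edgeR adjusted p = 0.00278). In Relb, Nfkb2, Rel, Nfkbia and Traf1 both DC III libraries lay above all 4 others. Because several of these are known targets of NF-kappaB, the 250 bases before the RefSeq starts were searched on both strands for a kappa B motif of 10 letters, 3 G, any 2 letters, 3 T and 2 C in that order. Windows of 30 bases around 5 of the matches are shown with the match in capitals (GRCm38.p6, along the gene's strand).
B2m, chr2:122147551-122147580, plus strand: actgaaaatgGGAAAGTCCCtttgtaacct
Nfkb2, chr19:46305695-46305724, plus strand: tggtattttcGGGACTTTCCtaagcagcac
Nfkbia, chr12:55492657-55492686, minus strand: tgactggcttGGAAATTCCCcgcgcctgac
Rel, chr11:23771041-23771070, minus strand: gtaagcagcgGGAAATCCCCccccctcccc
Tnfrsf9, chr4:150927946-150927975, plus strand: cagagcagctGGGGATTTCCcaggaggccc
Of the DC III genes with a promoter entry 11 held a match (5.58%), namely B2m, Dusp5, Eno2, Gbp5, Mif4gd, Nfkb2, Nfkbia, Rel, Tank, Tnfrsf9 and Tuba1c. The share was 2 of 47 DC II genes (4.26%), 1 of 9 DC I genes (11.1%), 1.73% of the genes tested and 1.65% of all genes with an entry. Tnfrsf9, which encodes 4-1BB, stood at 0.0386 and 0.0296 CPM in DC I, 0.152 and 0.056 in DC II and 192.99 and 115.2 in DC III. A match is no measure of binding.

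Chemokines draw other cells in, and the 3 classes held different ones. Of 17 tested chemokines 3 were higher in dendritic cells than in macrophages, 4 were lower and 10 were not called, with a median of -2.93. Ccl17, which draws cells that carry Ccr4, stood at 1.35 and 286.1 CPM in DC I, 841 and 2189 in DC II and 179.5 and 137.5 in DC III, against at most 1.19 CPM in macrophages (edgeR, adjusted p = 0.000177). DC II held it in 16 of 25 cells, but in DC I 2 of 40 and in DC III 3 of 22 cells had 10 CPM, so that the values of those classes rested on few cells. Ccl22, which uses the same receptor, stood at 5.1 and 5.03 CPM in DC I, 252.1 and 2.3 in DC II and 2501 and 1293 in DC III, against at most 8.18 CPM (edgeR, adjusted p = 0.00211). It lay in 20 of 22 DC III cells, and 1 cell gave 97.6% of the DC II reads. Cxcl16 stood at 276.6 and 296.6 CPM in DC I, 380.3 and 67.2 in DC II and 2902 and 1702 in DC III (edgeR, adjusted p = 1.43e-05) and was higher in DC III than in both other classes (larger edgeR adjusted p = 0.0311).

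Ccl9 stood at 0.0386 and 27.7 CPM in DC I, 3438 and 881 in DC II and 13.2 and 30.3 in DC III, against 447 to 1746 in macrophages, so that DC II lay in or above their range and DC I and DC III below it (edgeR, log2 difference -2.93 ± 0.82 SE, adjusted p = 0.0355). Ccl6 was also highest in DC II, at 26.2 and 170.5 CPM in DC I, 967 and 604 in DC II and 42.9 and 14.3 in DC III, against 289.04 to 16291 (edgeR, log2 difference -3.65 ± 0.45 SE, adjusted p = 0.000232). Ccl12, a monocyte attractant, had 0 reads in all dendritic libraries, and Ccl7 had 3 reads, in 1 DC III cell. Of 12 receptors 1 was higher, 3 were lower and 8 were not called, where 3.39% and 9.33% of all genes were higher and lower. Ccr2, the receptor that brings monocytes and their kin from blood, stood at 528 and 465 CPM in DC I, 865 and 427 in DC II and 0 and 0 in DC III, and the difference of DC III from DC I and from DC II was called (edgeR, adjusted p = 3.75e-05 and 2.81e-05). Ccr1 also had 0 reads in both DC III libraries. Cxcr3 stood at 458 and 304.3 CPM in DC I, 0 and 15.2 in DC II and 0 and 0 in DC III, in 29 of 40 DC I cells and in 1 of 25 DC II cells, but was not called between classes (edgeR, DC I against DC II, adjusted p = 0.441). Cx3cr1, the fractalkine receptor, stood at 0 and 0 CPM in DC I, 200.6 and 115.3 in DC II and 0 and 0.0639 in DC III (larger edgeR adjusted p = 0.0107 for DC II).

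**Figure D5:**
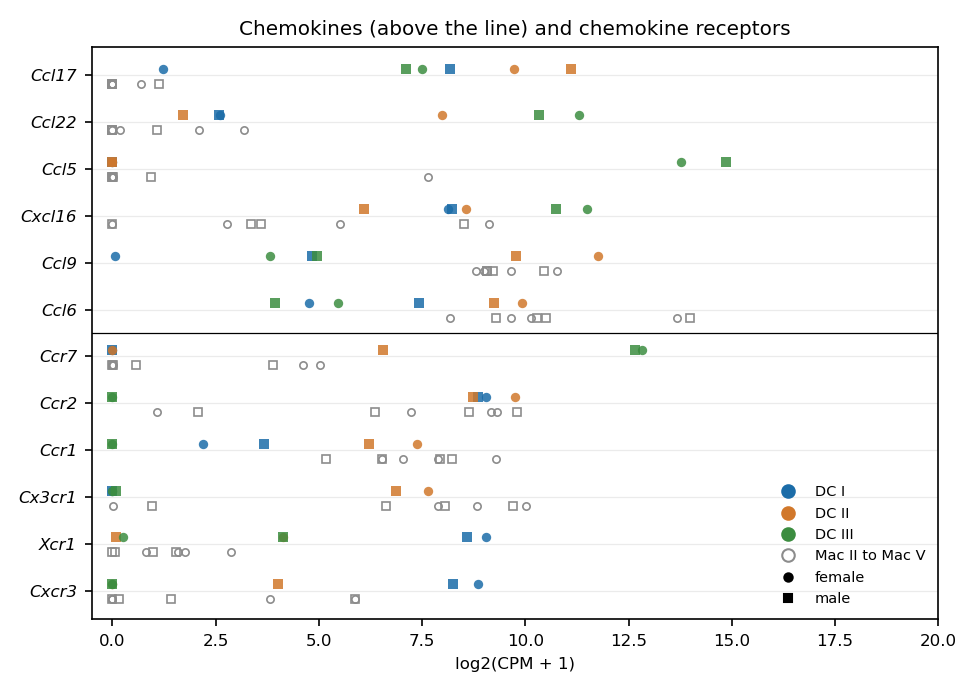
Level of 6 chemokines (above the line) and 6 chemokine receptors (below it) as log2(CPM + 1) on the x axis, 1 point per summed library, symbols as in the plot of shared genes. DC III lies right for Ccl5, Ccl22, Cxcl16 and Ccr7 and at 0 for Ccr1 and Ccr2, DC II lies with the macrophages for Ccl9, Ccl6, Ccr1 and Cx3cr1, and DC I lies right for Xcr1 and Cxcr3.

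Of 14 tested cytokine genes 0 were called higher in dendritic cells than in macrophages, 4 were lower and 10 were not called (edgeR). Over all genes 3.39% were higher and 9.33% lower. Il12b was not called, although it averaged 537 CPM over the dendritic and 0.416 CPM over the macrophage classes. Its dendritic reads lay almost wholly in DC III, so the mean on the log scale could not decide. Il15, which sustains memory T cells and NK cells, stood at 31.3 and 34.8 CPM in DC I, 59.1 and 0.168 in DC II and 358.7 and 306.01 in DC III, and its carrier Il15ra at 14.4 and 17.5 CPM in DC I, 7.28 and 0 in DC II and 1021 and 546 in DC III (larger edgeR adjusted p = 0.0245 for DC III). Il1b stood at 78.7 and 98.1 CPM in DC I, 589 and 117.6 in DC II and 0 and 0 in DC III. Macrophages held 61.4 to 1330.2 CPM (edgeR, adjusted p = 0.000177). DC III held 0 reads of it in both animals. Il10 had 0 reads in every dendritic library.

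Costimulatory molecules license T cells, and the classes did not share one pattern. Of 12 tested genes 3 were higher, 3 lower and 6 not called, beside 3.39% higher and 9.33% lower over all genes. Cd83, a marker of mature dendritic cells, stood at 178.5 and 79.4 CPM in DC I, 145.9 and 63.9 in DC II and 2113 and 1350.4 in DC III (larger edgeR adjusted p = 0.00305 for DC III). Cd40 stood at 0 and 3.16 CPM in DC I, 20.2 and 50.4 in DC II and 180.5 and 379.5 in DC III. Macrophage libraries held 0 to 52.7 CPM (edgeR, log2 difference 6.32 ± 1.17 SE, adjusted p = 0.00379). Cd86, a ligand of CD28, ran the other way, at 265.3 and 182.9 CPM in DC I, 177.02 and 92.2 in DC II and 71.7 and 14.9 in DC III, and was lower in DC III than in DC I (edgeR, log2 difference of DC I from DC III 2.22 ± 0.62 SE, adjusted p = 0.041). Cd80, the other ligand, stood at 0 and 0 CPM in DC I, 0 and 6.11 in DC II and 0 and 44.8 in DC III and was not called. Cd274, which encodes the inhibitory ligand PD-L1, stood at 0 and 0.0296 CPM in DC I, 0 and 17.8 in DC II and 223.4 and 79.5 in DC III, and in 13 of 22 DC III cells at 10 CPM or more, and macrophages stood at 9.45 to 253.1 CPM (edgeR, log2 difference -4.83 ± 1.02 SE, adjusted p = 0.00827).

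The classes also differed in breadth of expression. After each cell was thinned to 100000 reads, the median number of genes detected was 3440.5 and 3417.5 in DC I, 3671 and 3438.5 in DC II and 2529 and 2372 in DC III, and no dendritic cell was shallower. DC III was lowest in both animals, below every macrophage class, of which Mac V was lowest at 2692 and 2747. Malat1, a long noncoding RNA kept in the nucleus, stood at 8829 and 12849 CPM in DC I, 3791 and 5261 in DC II and 41254 and 49813 in DC III (larger edgeR adjusted p = 0.00076), and its part in the lower gene number was not tested. Unthinned class means of the 2 medians were 4370.5 genes in DC I, 4535 in DC II and 3272 in DC III. A cell was counted as cycling when 4 or more of 10 cell cycle genes had 5 reads or more. Of DC I, 3 of 16 and 7 of 24 cells did, of DC II 2 of 11 and 3 of 14, and of DC III 0 of 11 in each animal, which allows up to 27.3% each by a limit of 3 counts (exact upper bound 28.5%). The exact intervals of the 3 classes overlap within each animal. Across the 14347 genes, Pearson's r of class mean log2 levels was 0.825 for DC I with DC II, 0.692 for DC I with DC III and 0.668 for DC II with DC III, while DC II with Mac V gave 0.809 and DC III with any macrophage class at most 0.669. Between the female and male library of 1 class, without averaging over animals, r was 0.841 for DC I, 0.780 for DC II and 0.760 for DC III. Genes are not independent replicates, and the libraries differ in depth.

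Dendritic cells made up 38 of 598 female cells (6.35%, 4.54% to 8.62%) and 49 of 585 male cells (8.38%, 6.26% to 10.9%). The plates of 1 animal also differed. The first female CD45 plate held 25 dendritic cells (8.68% of its cells, 5.70% to 12.5%) and the second 11 (3.62%, 1.82% to 6.38%), while the male plates held 22 (7.53%) and 27 (9.34%). The first female plate was sequenced in another run, labelled DC28, than the other 3, labelled DC35, so that run and plate cannot be told apart.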

How the data were processed

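Single cells of distal lung were sorted into plates and libraries made with the Tn5 transposase, per the labels' protocols. The deposited values are the authors' raw read counts for 18072 genes in 1183 cells. The submitters' processing notes name STAR 2.5.2b, HTSeq 0.10 and GRCh38, a human build, although the cells are mouse, so the build used is unsure and no coordinate rests on it. Reference sequences come from RefSeq on GRCm38.p6. Counts were summed per animal and labelled class into 14 libraries. Depth is 10037071 to 33828927 counts per dendritic library.

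Genes were filtered with filterByExpr by class, scaled by TMM and tested with edgeR 4.0.16 (quasi-likelihood, R 4.3.3) with Benjamini-Hochberg adjustment at 0.05. The macrophage contrast sets the mean of the 3 dendritic coefficients against that of the 4 macrophage ones, and class genes passed against both other dendritic classes. CPM were taken without TMM factors. Named genes are the 12 largest changes per direction without overlap between libraries, at least 50 CPM on average and at least 10 CPM in at least 50% of cells of each higher class, and per class the 10 largest by the same limits (5 in DC I). Further genes come from 27 lists. Members, lists and rules were chosen with earlier results of these data known. The female and the male each gave every class, so libraries pair by animal, and over 21 pairs of classes same-animal deviations correlated at 0.0131 to 0.135. Alternatives were DESeq2 1.42.0, limma 3.58.1 voom, other scalings, no filter, all 15 subtypes, the animal as block, 1 run, CD45 plates, 11 cells per library, the 13 cells left out and each library left out. Scripts were tested on simulated data.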

Additional observations from a re-analysis of the deposited data

How the results depend on the processing

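With DESeq2, 4007 genes differed between dendritic cells and macrophages (1227 higher, 2780 lower), and 2.24% of the genes tested were called for DC I, 3.07% for DC II and 5.87% for DC III. Limma voom gave 0.579% for DC I and 0.662% for DC II. With all 15 subtypes in the fit 1054 genes were called for dendritic cells against macrophages, and the shares were 0.00641%, 0.141% and 0.404%. Within the shared run, where the female dendritic libraries held 2 to 5 cells, the values were 1176 genes, 0.0216%, 0.1796% and 0.496%. With 11 cells per library, added after the data were seen, they were 751 genes, 0.0161%, 0.249% and 0.539%. Scaling each cell to the same total left 0.0491% for DC I. DESeq2's size factors moved the median over all genes from -0.52 to -0.40. Leaving out single libraries gave 1154 to 2427 genes for dendritic cells against macrophages, 0.0384% to 0.166% for DC I, 0.224% to 0.589% for DC II and 0.940% to 1.69% for DC III. Where this left a class with 1 library, it was assumed to vary like the other classes. With the animal as a replicate block the values were 1685 genes, 0.0697%, 0.335% and 1.83%, and the block ended no named call but those of Gcsam, Ctnnd2 and Nudt17. Of 1025 named results under alternatives 948 kept their call, 77 lost it and 0 reversed. Each dendritic library rests on 11 to 24 cells, and a gene in few cells of a class can be missed. On simulated data of this design, 14% of 4-fold and 53% of 16-fold changes between dendritic cells and macrophages were recovered.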

Other observations

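Further genes of the classes are given here, chosen after their values were seen. All DC III genes here passed both class tests. Rgs1, which shortens signals of chemokine receptors, stood at 17 and 38.6 CPM in DC I, 0 and 18.7 in DC II and 5985 and 2879 in DC III (larger edgeR adjusted p = 0.0158). Samsn1, an adaptor known from lymphocytes, stood at 5.68 and 7.77 CPM in DC I, 51.9 and 60.6 in DC II and 1715 and 1858 in DC III (larger edgeR adjusted p = 0.000138), and Socs2, an inhibitor of cytokine signalling, at 0.618 and 1.83 CPM in DC I, 61.6 and 9.75 in DC II and 270.8 and 658 in DC III (larger edgeR adjusted p = 0.0219). Serpinb9, which inhibits granzyme B, stood at 0.386 and 24.9 CPM in DC I, 0 and 3.7 in DC II and 1720.0 and 2002 in DC III and was held by 16 of 22 cells (larger edgeR adjusted p = 0.036), and its relative Serpinb6b at 10.5 and 13.5 CPM in DC I, 0 and 0 in DC II and 1164 and 1238 in DC III (larger edgeR adjusted p = 0.000322). Epsti1 stood at 196.4 and 120.4 CPM in DC I, 77.5 and 24 in DC II and 3418 and 3884 in DC III (larger edgeR adjusted p = 0.000452), and Irf1, a factor downstream of interferon, at 78 and 36.6 CPM in DC I, 27.4 and 293.5 in DC II and 1144 and 2242 in DC III (larger edgeR adjusted p = 0.0208). Metabolic and transport genes were in the set as well: Gclc, which begins glutathione synthesis, at 1785 and 874 CPM (larger edgeR adjusted p = 0.00293), Pfkfb3, an activator of glycolysis, at 410.5 and 449.6 (larger edgeR adjusted p = 0.00178), the bicarbonate transporter Slc4a8 at 323.9 and 562 (larger edgeR adjusted p = 4.16e-05) and the calcium channel subunit Cacnb3 at 2668 and 1254 (larger edgeR adjusted p = 0.00136), all at most at 27.7 CPM in DC I and DC II.

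DC II held, beside the receptors named above, Capg, an actin-capping protein, at 0 and 0.236 CPM in DC I, 1043 and 582 in DC II and 13.9 and 23.3 in DC III (larger edgeR adjusted p = 0.00216), S100a6, a calcium-binding protein, at 178.6 and 164.7 CPM in DC I, 1388 and 1802 in DC II and 70.8 and 27.8 in DC III (larger edgeR adjusted p = 0.0145), and Il1rl2, the receptor of interleukin 36, at 103.1 and 73 CPM in 9 of 25 cells (larger edgeR adjusted p = 0.0148). The antiviral genes Oas1a, 78.1 and 36.5 CPM in 8 of 25 cells (larger edgeR adjusted p = 0.00298), and Oasl2, 97 and 25.1 CPM in 4 cells (larger edgeR adjusted p = 0.0422), were in the class's set too and rested on few cells. Most of the other 9 DC I genes, among them Id1, Fzd1 and Epcam, were held at 10 CPM by few of the 40 cells, from 2 for Olr1 to 19 for Dock5.

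Of the genes that mark other lineages, T cell genes gave 0 of 6 tested higher or lower in dendritic cells than in macrophages, B cell genes 1 of 6 lower, the 1 NK cell gene tested lower, neutrophil genes 2 of 4 lower, epithelial genes 0 of 6, endothelial genes 3 of 6 lower and mesenchymal genes 0 of 6. Of 8 plasmacytoid dendritic cell genes 1, Pacsin1, was higher, and of 10 cell cycle genes 0 were called. Over all genes 3.39% were higher and 9.33% lower. Pacsin1 reached 10 CPM in 0 of 40 DC I, 2 of 25 DC II and 1 of 22 DC III cells. Without the 13 cells it stood at no more than 2.87 CPM in any dendritic library. Pacsin1 is on the plasmacytoid list by which cells were left out, so a lower level was in part built in.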
